A study of Homo sapiens with 24 samples.

Results

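Oncostatin M (OSM) is a cytokine of the interleukin 6 family, and the results below follow how its effect on transcript levels in HepG2 cells differed between 24 h and 1 h of treatment. For each gene, the OSM minus DMSO difference at 24 h was set against the same difference at 1 h, on 12 of the 24 arrays of the series. HepG2 cells are an established line from a human liver tumour with many hepatocyte traits. The series profiled treatments chosen as inducers of the gene TRIB1, among them the code-named compound BRD8518.

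The 4 groups had 3 whole-transcript arrays each: OSM at 24 h, DMSO vehicle at 24 h, OSM at 1 h and DMSO vehicle at 1 h. OSM was given at 100 ng/mL. All wells started from 10000 plated cells and had DMSO at 0.25%, in OSM wells added beside a PBS solution of the cytokine, and the labels do not say whether vehicle wells also received PBS. BRD8518 at 1 uM for 24 h and 1 h, on 6 further arrays, serves as a comparison near the end. The labels are silent on separate cultures for replicates, and the p-values rest on array-to-array spread, part or all of which may be technical. The comparison covers 1 cell line and 1 dose at 2 times.

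OSM signals in human cells through gp130 paired with the OSM receptor (OSMR) or with the LIF receptor (LIFR). The receptors activate JAK kinases, the transcription factor STAT3 and the MAP kinase cascade. Immediate-early genes are switched on within minutes, their products and the SOCS proteins then feed back on the pathway, and hepatocytes make acute phase proteins, the plasma proteins of inflammation. A time difference can therefore show which transcripts came and went, which stayed and which appeared only later.

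Levels are log2 array values, and an effect is the difference of 2 group means on that scale. The change of the effect is the 24 h effect minus the 1 h effect, so a negative change of a rising gene means a smaller rise at 24 h. Standard errors (SE) come from limma, fitted to 14884 genes with all arrays together, and a gene is said to have changed where its Benjamini-Hochberg adjusted p was under 0.05. Array values are relative within an array, so fewer cells and less RNA per cell cannot be told apart.

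Array medians ran from 4.89 to 4.95, and replicates of the 4 groups correlated at 0.9946 or above. Of 12 hepatocyte markers 10 were measured, and their median on each array was 11.68 to 11.8 with OSM and 11.97 to 12.02 with DMSO at 24 h, and 11.92 to 11.94 with OSM and 11.93 to 12.03 with DMSO at 1 h. The median of 13 measured markers of other cell types was 5.58 to 5.86 with OSM and 5.76 to 5.94 with DMSO at 24 h, and 5.88 to 6.02 with OSM and 5.81 to 6.07 with DMSO at 1 h. Within that second list the macrophage gene LYZ averaged 12.24 over all arrays and the fibroblast gene DCN 2.35. These values carry no detection call. A DMSO array at 6 h, replicate 2, stood apart from its replicates (lowest correlation 0.9734). It is in no group compared here but widens the spread shared by the fit.

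Sequences upstream of responding genes are shown first, together with how many genes of each time class described below held a STAT element. STAT dimers recognise TTCNNNGAA, and the narrower form TTCCNGGAA is contained in it. Promoter windows of 250 bases before to 50 bases after the start were taken from RefSeq (GRCh38.p14), found for 10749 of the 14884 genes, and searched on both strands. Shown are the transient, sustained and late rising genes with the largest effect whose window holds the element, the SOCS3 and HAMP windows, and the CISH window, which was chosen after its matches were seen. Capitals mark TTCNNNGAA matches and, in EGR1 alone, also a pair of CArG boxes, the element bound by serum response factor. Each window is written 5′ to 3′ on the gene's own strand.
EGR1 (transient rise, chr5:138465229-138465528, plus strand): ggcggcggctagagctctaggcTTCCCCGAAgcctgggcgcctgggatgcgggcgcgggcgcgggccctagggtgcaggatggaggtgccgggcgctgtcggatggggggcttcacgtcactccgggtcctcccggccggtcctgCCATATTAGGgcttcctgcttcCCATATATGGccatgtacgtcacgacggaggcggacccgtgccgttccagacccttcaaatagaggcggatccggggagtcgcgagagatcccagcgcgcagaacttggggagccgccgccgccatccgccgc
CISH (transient rise, chr3:50611725-50612024, minus strand): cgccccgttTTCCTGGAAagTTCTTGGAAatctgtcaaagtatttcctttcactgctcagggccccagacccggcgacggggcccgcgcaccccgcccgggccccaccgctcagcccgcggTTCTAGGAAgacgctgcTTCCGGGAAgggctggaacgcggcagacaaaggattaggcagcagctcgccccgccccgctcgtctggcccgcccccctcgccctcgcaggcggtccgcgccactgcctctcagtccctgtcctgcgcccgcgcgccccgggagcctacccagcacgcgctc
HAMP (transient rise, chr19:35282278-35282577, plus strand): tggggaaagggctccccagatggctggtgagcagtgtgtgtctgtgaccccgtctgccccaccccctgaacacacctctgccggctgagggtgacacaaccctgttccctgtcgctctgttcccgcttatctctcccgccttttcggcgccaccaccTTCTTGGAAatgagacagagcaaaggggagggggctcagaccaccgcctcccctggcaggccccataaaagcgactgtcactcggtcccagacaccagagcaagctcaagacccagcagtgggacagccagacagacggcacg
SOCS3 (transient rise, chr17:78360876-78361175, minus strand): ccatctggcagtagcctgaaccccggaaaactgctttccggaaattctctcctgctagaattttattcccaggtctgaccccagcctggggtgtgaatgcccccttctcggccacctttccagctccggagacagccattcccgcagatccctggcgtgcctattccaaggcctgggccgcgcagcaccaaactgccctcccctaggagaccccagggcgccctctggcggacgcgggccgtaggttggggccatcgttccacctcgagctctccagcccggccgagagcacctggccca
LRG1 (sustained rise, chr19:4539987-4540286, minus strand): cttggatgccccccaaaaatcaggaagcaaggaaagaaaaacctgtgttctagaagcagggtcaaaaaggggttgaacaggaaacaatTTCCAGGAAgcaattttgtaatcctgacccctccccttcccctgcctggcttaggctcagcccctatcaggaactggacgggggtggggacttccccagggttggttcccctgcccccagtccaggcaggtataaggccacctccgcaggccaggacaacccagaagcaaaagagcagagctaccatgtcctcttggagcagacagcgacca
PAEP (late rise, chr9:135561506-135561805, plus strand): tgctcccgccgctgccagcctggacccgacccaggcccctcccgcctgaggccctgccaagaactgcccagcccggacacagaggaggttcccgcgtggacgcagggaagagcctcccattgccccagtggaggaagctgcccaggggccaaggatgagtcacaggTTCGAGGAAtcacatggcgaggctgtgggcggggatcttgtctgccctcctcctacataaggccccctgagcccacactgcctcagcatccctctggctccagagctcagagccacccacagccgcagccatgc

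TTCNNNGAA lay in the windows of 11 of 66 transient rising genes (16.7%) and 12 of 80 sustained rising genes (15%), beside 724 of all 10749 windows (6.7%). Late rising genes held it in 5 of 118 windows (4.2%), late falling genes in 8 of 177 (4.5%) and growing genes in 1 of 13 (7.7%). The narrower TTCCNGGAA was in 8 of the 80 sustained windows (10.0%), those of CD14, CFB, CYTOR, FGA, HELB, ICAM1, LRG1 and PLSCR4, beside 127 of all windows (1.2%). It lay in 3 of 66 transient windows (4.5%), those of CCDC9, CISH and TRIM15, in 1 of 118 late rising windows (0.8%) and in 0 of 177 late falling ones. CISH held 4 matches, first bases 241, 230, 129 and 112 bases before the start, and the SOCS3 window shown holds none of these letters. The AP-1 element TGANTCA was in 4.5% of transient and 8.8% of sustained rising windows (5.9% of all), and TGACGTCA in 9.1% and 2.5% (2.6% of all). CArG boxes, marked in EGR1, were in 2 of 66 transient (3.0%), 1 of 80 sustained (1.2%) and 5 of 118 late rising windows (4.2%), beside 1.2% of all. The classes were drawn from these array values, so the shares are descriptions, and a match is not a bound site.

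The OSM effect differed between 24 h and 1 h for 502 of 14884 genes (3.37%). It was higher at 24 h for 189 (1.27%), 37 of them at least 2-fold, and lower for 313 (2.1%), 68 at least 2-fold. With no adjustment 1783 genes had a p under 0.05, beside a nominal 744 at that level if no gene differed. The median SE of a change was 0.16, and the smallest change past the threshold was 0.33 on the log2 scale. Without the 6 h DMSO array that stands apart, 1100 genes passed, all 502 among them, so the count is set in part by that array. Under OSM itself, 490 of the 502 also changed with the same sign between the 24 h and 1 h arrays. In the vehicle arrays 0 genes passed between 24 h and 1 h (limma with Benjamini-Hochberg adjustment, smallest adjusted p = 0.053). There 424 had an unadjusted p under 0.05, fewer than the nominal 744, so that number is no exact reference for this fit.

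At 24 h 1526 genes had changed with OSM (10.3%), 685 higher (4.6%) and 841 lower (5.65%), against 423 at 1 h (2.84%), 302 higher (2.03%) and 121 lower (0.813%). The 1 h count was 274 without DMSO 1 h replicate 3. Just 196 genes passed at both times, 184 of them in the same direction. Genes were put in 4 classes by which of the 3 comparisons they passed. Transient genes passed at 1 h and their change ran against the 1 h effect. Sustained genes passed at both times in 1 direction with no change past the threshold. Growing genes passed at both times and the effect grew, and late genes passed at 24 h and not at 1 h, with a change past the threshold. By these rules 93 genes were transient, 129 sustained, 23 growing and 374 late. Without the 6 h DMSO array apart the counts were 193, 263, 56 and 806. A further 956 genes passed at 24 h alone and 178 at 1 h alone with no change past the threshold, so their timing is undecided.

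**Figure D1:**
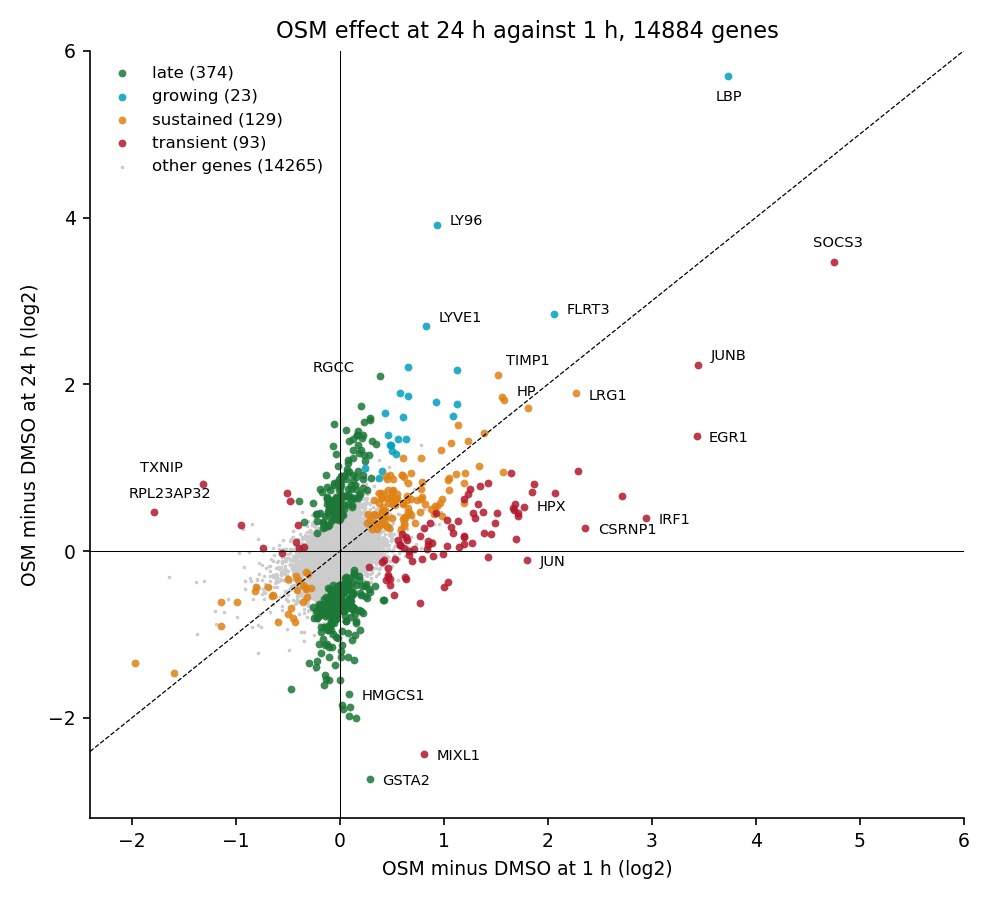
OSM minus DMSO at 24 h (vertical axis, log2) against OSM minus DMSO at 1 h (horizontal axis, log2) for 14884 genes, each point 1 gene coloured by time class. The dashed line marks equal effects at both times: LBP and LY96 lie above it, SOCS3, JUNB and EGR1 below it, and HMGCS1 and GSTA2 lie near 0 at 1 h and far below 0 at 24 h.

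Transient genes were led by immediate-early transcription factors and STAT feedback genes. Of the 93, 82 had risen at 1 h (0.551% of genes tested) and 11 had fallen (0.0739%). At 24 h, 49 were no longer past the threshold, 32 kept part of the rise, with a median of 36.2% of the 1 h effect left, and 12 stood on the other side of the vehicle. Membership follows from these same values and gets no test of its own.

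SOCS3, the STAT3-induced inhibitor of gp130 signalling, was the gene with the largest OSM effect at 1 h. It held 8.90, 8.79 and 8.62 with OSM and 5.15, 5.36 and 5.40 with DMSO at 24 h, and 10.30, 10.26 and 10.13 with OSM and 5.40, 5.62 and 5.41 with DMSO at 1 h. The OSM arrays lay above all DMSO arrays at both times, and the 24 h OSM arrays below the 1 h ones. SOCS3 was thus 11.1-fold higher at 24 h, against 26.9-fold at 1 h, and the change was −1.28 ± 0.19 (SE; limma, Benjamini-Hochberg adjusted p = 0.00018). A second SOCS3 probe set changed by −1.29. CISH, another STAT-induced inhibitor, had an effect of 0.42 ± 0.09 at 24 h and 1.71 ± 0.09 at 1 h. SOCS2 stood at −0.05 ± 0.09 at 24 h and 0.67 ± 0.09 at 1 h. SOCS1 was a sustained gene, with 1.41 ± 0.13 at 24 h and 1.39 ± 0.13 at 1 h. Of 8 measured STAT feedback inhibitors, 0 changed upward and 3 downward between the times (median −0.29, beside −0.01 over all genes).

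IRF1, an interferon regulatory factor and direct STAT target, had risen at 1 h and dropped steeply. Its values were 6.15, 6.07 and 6.08 with OSM and 5.59, 5.67 and 5.85 with DMSO at 24 h, and 8.38, 8.72 and 8.50 with OSM and 5.62, 5.61 and 5.54 with DMSO at 1 h. At both times the OSM arrays lay above the DMSO arrays, narrowly at 24 h. The change was −2.55 ± 0.15 (limma, Benjamini-Hochberg adjusted p = 4.7e-10), and 13.6% of the 1 h effect was left. The 24 h effect of 0.40 ± 0.11 lost its call without OSM 24 h replicate 1 (0.37) or 3 (0.41) and without DMSO 24 h replicate 1 (0.34) or 2 (0.38). IRF9, part of the interferon-stimulated ISGF3 complex, kept 0.69 ± 0.08 at 24 h, against 1.23 ± 0.08 at 1 h.

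JUN, an AP-1 subunit, returned to vehicle level. It held 7.68, 7.63 and 7.69 with OSM and 7.64, 7.80 and 7.86 with DMSO at 24 h, and 9.63, 9.57 and 9.52 with OSM and 7.82, 7.73 and 7.77 with DMSO at 1 h. The groups overlapped at 24 h and were far apart at 1 h. The change was −1.90 ± 0.11 (limma, Benjamini-Hochberg adjusted p = 3.3e-10), with −0.10 ± 0.08 at 24 h. JUNB, by contrast, was still 4.71-fold higher at 24 h, against 10.9-fold at 1 h (change −1.21 ± 0.17, adjusted p = 7.4e-05).

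EGR1, a zinc-finger factor induced by MAP kinase signals, read 9.30, 9.53 and 9.61 with OSM and 7.77, 8.19 and 8.34 with DMSO at 24 h, and 11.85, 11.80 and 11.84 with OSM and 8.34, 8.43 and 8.43 with DMSO at 1 h. It stayed above vehicle on every OSM array, with 2.61-fold at 24 h against 10.8-fold at 1 h (change −2.05 ± 0.19, limma, Benjamini-Hochberg adjusted p = 2.8e-07). Its second probe set gave −1.39, with 0.19 at 24 h and 1.58 at 1 h, so that how far EGR1 stayed above vehicle at 24 h depends on the probe set. CSRNP1, a cysteine- and serine-rich nuclear protein, was 5.14-fold higher at 1 h and 0.28 ± 0.13 at 24 h, a change of −2.08 ± 0.18.

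Among 23 measured immediate-early factors, 0 changed upward and 13 downward between the times (15 downward without the 6 h DMSO array apart), with a median of −0.71 beside −0.01 over all genes. At 24 h 10 were higher and 1 lower than vehicle, against 17 higher and 0 lower at 1 h. Over all genes 4.6% were higher and 5.65% lower at 24 h, against 2.03% and 0.813% at 1 h. The KLF zinc-finger factors split. KLF6 kept 0.69 ± 0.09 at 24 h, against 2.07 ± 0.09 at 1 h, and KLF10 kept 0.50 ± 0.09, against 1.68 ± 0.09, while KLF9, with 1.02 ± 0.11 at 24 h and 1.34 ± 0.11 at 1 h, did not pass for a change. FOSL1 and IER2 were near vehicle at 24 h (0.18 ± 0.07 and 0.21 ± 0.19), against 1.19 ± 0.07 and 1.45 ± 0.19 at 1 h. FOS changed by −1.14 ± 0.23 on its brighter probe set and by −0.38 on its other one (adjusted p = 0.5). Its 24 h effect of 0.71 ± 0.16 was 0.45 and not past the threshold when its probe sets were averaged. The stress factor ATF3 changed by −0.91 ± 0.19, and its 24 h effect of 0.46 ± 0.14 lost its call without OSM 24 h replicate 1 (0.42) or 2 (0.43) and without DMSO 24 h replicate 1 (0.44) or 2 (0.43). MYC, with an effect of 0.07 ± 0.06 at 24 h and 0.18 ± 0.06 at 1 h, passed in none of the 3 comparisons.

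Feedback on the MAP kinase cascade followed the same order in part. Of 13 measured genes 5 changed downward and 0 upward (median −0.23), beside 2.1% downward and 1.27% upward over all genes. Each list count of this kind is to be read beside those shares. The lists were chosen with earlier results of these data known, so an excess over the shares is a description and no test. DUSP1 and DUSP6, phosphatases of MAP kinases, kept 0.56 ± 0.07 and 0.78 ± 0.08 at 24 h, against 1.33 ± 0.07 and 1.35 ± 0.08 at 1 h. SPRY4, a receptor tyrosine kinase feedback inhibitor, kept 0.74 ± 0.08, against 1.25 ± 0.08 at 1 h. ERRFI1, which binds the EGF receptor, was sustained at 0.62 ± 0.09 at 24 h and 0.74 ± 0.09 at 1 h. Other transient rises without a list were HBEGF, an EGF receptor ligand (0.80 at 24 h, 1.86 at 1 h), the kinase gene RIPK4 (0.96, against 2.29), ZC3H12A, which encodes an mRNA-degrading nuclease (0.08, against 1.19), the histone demethylase gene KDM6B (0.10, against 1.27) and LIF, another gp130 cytokine (0.22, against 1.09). They were picked after their values were seen.

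TRIB1, which encodes the pseudokinase tribbles 1, was a transient gene under OSM. It held 9.72, 9.92 and 9.88 with OSM and 9.17, 9.31 and 9.34 with DMSO at 24 h, and 10.69, 10.89 and 10.84 with OSM and 9.15, 9.12 and 9.12 with DMSO at 1 h. OSM arrays exceeded all DMSO arrays at each time. TRIB1 was 1.48-fold higher at 24 h, against 3.21-fold at 1 h, and the change was −1.11 ± 0.12 (limma, Benjamini-Hochberg adjusted p = 1.8e-06). TRIB3 changed by −0.33 ± 0.13 and TRIB2 by −0.13 ± 0.15, neither past the threshold.

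**Figure D2:**
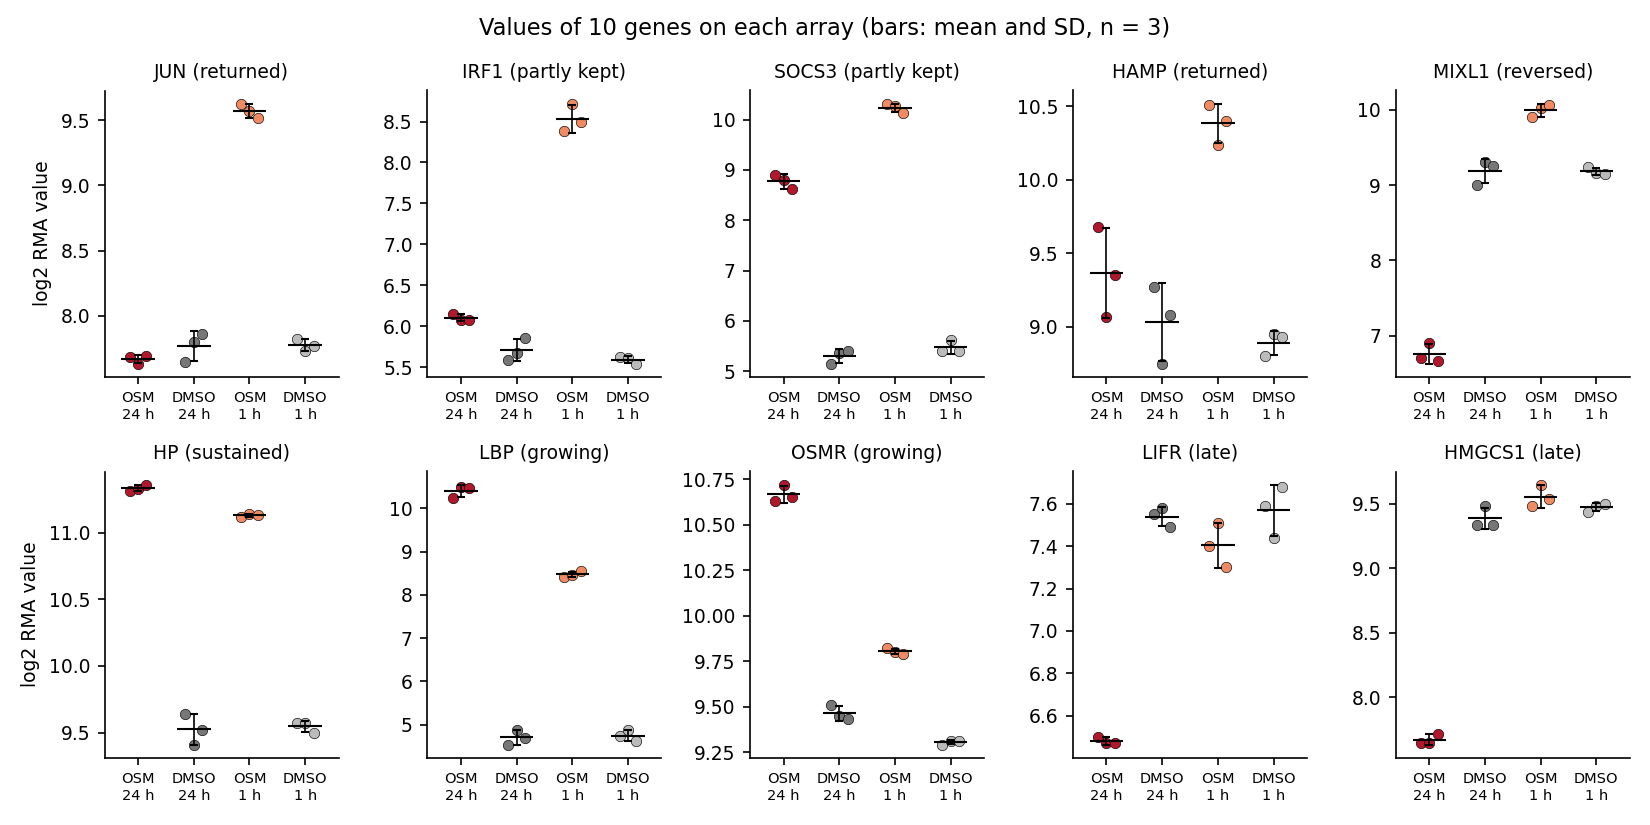
Log2 array values of 10 genes on each of the 12 arrays, with the mean and SD (n = 3) as a bar and whiskers, in the groups OSM 24 h, DMSO 24 h, OSM 1 h and DMSO 1 h from left to right; each panel has its own vertical scale. JUN at 24 h overlaps vehicle, SOCS3 and IRF1 lie between vehicle and their 1 h level, MIXL1 falls below vehicle, LBP and OSMR are highest at 24 h, and LIFR and HMGCS1 are low at 24 h alone.

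Some genes crossed the vehicle level between the times. MIXL1, a homeobox factor of early development, read 6.70, 6.90 and 6.66 with OSM and 9.0, 9.30 and 9.26 with DMSO at 24 h, and 9.90, 10.02 and 10.07 with OSM and 9.24, 9.16 and 9.15 with DMSO at 1 h. OSM arrays were all below vehicle at 24 h and all above it at 1 h. It was 5.4-fold lower at 24 h, against 1.76-fold higher at 1 h, and its change of −3.24 ± 0.15 was the lowest of all genes (limma, Benjamini-Hochberg adjusted p = 4.3e-12).

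In the other direction, TXNIP, a thioredoxin-binding arrestin-domain protein that limits glucose uptake, held 8.93, 8.82 and 8.99 with OSM and 8.07, 8.14 and 8.13 with DMSO at 24 h, and 6.89, 7.07 and 6.96 with OSM and 8.25, 8.34 and 8.28 with DMSO at 1 h. It was 1.74-fold higher at 24 h, against 2.49-fold lower at 1 h, a change of 2.12 ± 0.19 (adjusted p = 3.5e-07), and 1.59 on its other probe set. Its relative ARRDC4 moved the same way, with 0.70 ± 0.10 at 24 h and −0.51 ± 0.10 at 1 h. The actin regulator RHOB (−0.37 at 24 h, 1.04 at 1 h) and the stress-induced ankyrin repeat gene ANKRD1 (−0.63, against 0.77) crossed downward. So did SPRY2, TIPARP, JUND, FBXO5 and DUSP8, with 24 h effects of −0.40, −0.32, −0.34, −0.52 and −0.33. The 24 h call of RHOB was lost without OSM 24 h replicate 1 (−0.31) or DMSO 24 h replicate 3 (−0.32), and that of JUND without OSM 24 h replicate 2 (−0.22) or 3 (−0.35) or DMSO 24 h replicate 1 (−0.34) or 3 (−0.29). DUSP8 lost its 24 h call without any array of that time except DMSO 24 h replicate 2 (−0.37 to −0.31) and its 1 h call without DMSO 1 h replicate 3 (0.43). FBXO5 lost its 1 h call without OSM 1 h replicate 3 (0.50) or DMSO 1 h replicate 3 (0.48).

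Transient falls were few. RPL23AP32, a ribosomal protein pseudogene inside SPTBN1, held 8.95, 9.47 and 8.97 with OSM and 8.47, 8.91 and 8.60 with DMSO at 24 h, and 7.04, 7.64 and 6.91 with OSM and 8.99, 8.68 and 9.29 with DMSO at 1 h. All OSM arrays lay above the DMSO arrays at 24 h, narrowly and not past the threshold (0.47 ± 0.20), and below them at 1 h. The change was 2.25 ± 0.28 (limma, Benjamini-Hochberg adjusted p = 1.9e-05), and pseudogenes of this family share sequence, so the source is uncertain. FOXA2, a hepatocyte pioneer factor, stood at 0.05 ± 0.06 at 24 h and −0.34 ± 0.06 at 1 h, and the call for its change was lost without OSM 1 h replicate 2 (0.36). The zinc-finger gene ZNF737 changed by 0.78 ± 0.18, a call lost without OSM 1 h replicate 1 (0.71), DMSO 1 h replicate 3 (0.71), OSM 24 h replicate 3 (0.68) or DMSO 24 h replicate 3 (0.69). From 1 h to 24 h its DMSO arrays moved by −0.41 ± 0.13 and its OSM arrays by 0.37 ± 0.13, neither past the threshold. Much of its change thus lay in the vehicle arrays.

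Probe sets for microRNA genes detect precursors or host transcripts rather than mature microRNAs. Their mature sequences are shown because 2 of the 3 share a seed and went opposite ways; capitals mark the seed, bases 2 to 8 (RefSeq, GRCh38.p14).
hsa-miR-146a-5p (chr5:160485372-160485393, plus strand): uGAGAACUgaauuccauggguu
hsa-miR-146b-5p (chr10:102436520-102436542, plus strand): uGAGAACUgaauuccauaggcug
hsa-miR-21-5p (chr17:59841273-59841294, plus strand): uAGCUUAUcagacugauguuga
MIR146B held 3.58, 3.79 and 3.79 with OSM and 3.65, 2.81 and 2.74 with DMSO at 24 h, and 5.44, 6.09 and 5.97 with OSM and 2.85, 3.24 and 3.26 with DMSO at 1 h. Levels overlapped at 24 h and did not at 1 h, and the change was −2.06 ± 0.26 (limma, Benjamini-Hochberg adjusted p = 2.2e-05). All MIR146B values except those with OSM at 1 h were low, and low array values are compressed, so its effects may be understated. Its 24 h effect of 0.66 ± 0.18 lost its call without OSM 24 h replicate 2 (0.62) or 3 (0.62) and without DMSO 24 h replicate 2 (0.53) or 3 (0.49). MIR146A, inside MIR3142HG, was 0.60 ± 0.10 at 24 h and −0.48 ± 0.10 at 1 h, a change of 1.08 ± 0.14. MIR21, inside VMP1, was sustained at 1.72 ± 0.14 at 24 h and 1.81 ± 0.14 at 1 h, with a change of −0.09 and a 95% interval of −0.49 to 0.31.

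Sustained genes were mostly rises, 102 (0.685% of genes tested) beside 27 falls (0.181%), and held much of the acute phase response. The median sustained gene kept 95.7% of its 1 h effect at 24 h. The class rule favours such a share, since genes with a change past the threshold fell in other classes. A change that misses the threshold does not show equal effects, so intervals are given for the leading genes. HP encodes haptoglobin, which binds free hemoglobin. It held 11.31, 11.33 and 11.36 with OSM and 9.64, 9.41 and 9.52 with DMSO at 24 h, and 11.12, 11.14 and 11.13 with OSM and 9.57, 9.57 and 9.50 with DMSO at 1 h. Every OSM array exceeded every DMSO array at both times, by 3.5-fold at 24 h and 2.99-fold at 1 h, and the change was 0.23 (95% interval −0.06 to 0.52). The near-identical HPR may share its signal.

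LRG1, a secreted leucine-rich glycoprotein, held 10.72, 10.62 and 10.73 with OSM and 8.83, 8.62 and 8.95 with DMSO at 24 h, and 10.99, 10.94 and 10.92 with OSM and 8.68, 8.82 and 8.53 with DMSO at 1 h. It was 3.71-fold higher at 24 h and 4.83-fold at 1 h, and its change of −0.38 (95% interval −0.65 to −0.11) did not pass after adjustment over all genes (adjusted p = 0.14). Without DMSO 24 h replicate 2 it did (−0.47), as it did with array weights (−0.32) and without the 6 h DMSO array apart (−0.38). TIMP1, an inhibitor of matrix metalloproteases, was 4.31-fold higher at 24 h and 2.86-fold at 1 h (95% interval of the change 0.13 to 1.05, adjusted p = 0.21). PLSCR4, a phospholipid scramblase, was 3.61-fold higher at 24 h and 2.95-fold at 1 h (95% interval of the change −0.19 to 0.77). Among the falls, SMAD7, an inhibitor of TGF-beta and BMP signals, stood at −0.61 ± 0.11 at 24 h and −0.99 ± 0.11 at 1 h. Its change of 0.38 (95% interval 0.04 to 0.71) did not pass after adjustment (limma, Benjamini-Hochberg adjusted p = 0.33).

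Of 23 measured positive acute phase genes, 17 were higher than vehicle at 24 h and 17 at 1 h, with 0 lower at either time. Over all genes 4.6% were higher at 24 h and 2.03% at 1 h. The median effect of the 23 genes was 0.74 at 24 h and 0.63 at 1 h, against 0.01 over all genes at each time. In the time comparison 3 changed upward, 2 downward and 18 did not pass (median 0.09; 6 upward and 4 downward without the 6 h DMSO array apart), and 12 were sustained. The fibrinogen chain genes FGA, FGB and FGG were sustained, with 0.89 ± 0.06, 1.51 ± 0.10 and 0.81 ± 0.09 at 24 h, against 0.62 ± 0.06, 1.14 ± 0.10 and 0.65 ± 0.09 at 1 h. So were the endotoxin co-receptor gene CD14, complement factor CFB and the metallothionein gene MT2A. SAA1, which encodes serum amyloid A, averaged 3.98 over all arrays and passed at neither time (0.10 ± 0.15 at 24 h, 0.31 ± 0.15 at 1 h). Low array values are compressed, so these missed calls do not show that SAA1 was unchanged.

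**Figure D3:**
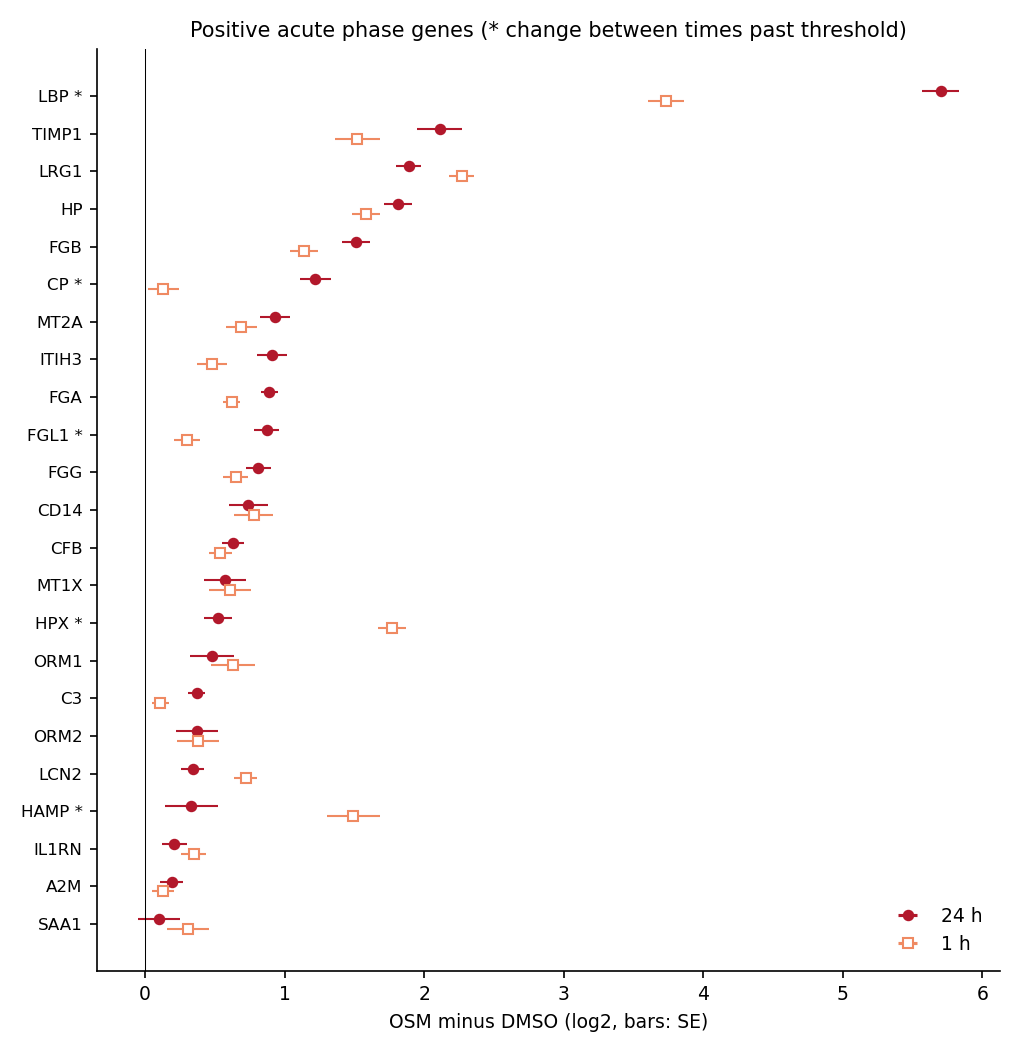
OSM minus DMSO (log2, bars SE) for the 23 measured positive acute phase genes, with 24 h as filled circles and 1 h as open squares, ordered by the 24 h effect. Most pairs lie close together; LBP, CP and FGL1 are higher at 24 h and HPX and HAMP lower, the 5 genes starred for a change past the threshold.

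HPX and HAMP were the 2 acute phase genes with a downward change past the threshold (4 without the 6 h DMSO array apart). Both are tied to heme or iron, but so are HP, which was sustained, and CP, which rose late. HAMP encodes hepcidin, the hormone that lowers iron export and is induced by STAT3 in hepatocytes. It held 9.68, 9.07 and 9.35 with OSM and 9.27, 8.75 and 9.08 with DMSO at 24 h, and 10.51, 10.24 and 10.40 with OSM and 8.80, 8.95 and 8.93 with DMSO at 1 h. The groups overlapped at 24 h and were apart at 1 h, where HAMP was 2.81-fold higher. Its change was −1.16 ± 0.27 (limma, Benjamini-Hochberg adjusted p = 0.012), with 0.33 ± 0.19 at 24 h not past the threshold. HPX, which encodes the heme scavenger hemopexin, held 7.21, 6.90 and 6.98 with OSM and 6.62, 6.41 and 6.48 with DMSO at 24 h, and 8.05, 8.22 and 8.19 with OSM and 6.40, 6.37 and 6.38 with DMSO at 1 h. It was 1.44-fold higher at 24 h, against 3.41-fold at 1 h (change −1.24 ± 0.14, adjusted p = 5.6e-06). The heme oxygenase gene HMOX1 also returned, with 0.14 ± 0.08 at 24 h and 0.65 ± 0.08 at 1 h.

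Growing genes numbered 23, all of them rises (0.155% of genes tested), with a median effect at 24 h that was 241.8% of that at 1 h. The count was 14 without OSM 1 h replicate 1 and 15 without DMSO 1 h replicate 1. LBP, which encodes the lipopolysaccharide-binding protein, had the largest OSM effect at 24 h of all genes. It held 10.23, 10.50 and 10.47 with OSM and 4.54, 4.88 and 4.70 with DMSO at 24 h, and 8.42, 8.45 and 8.54 with OSM and 4.74, 4.87 and 4.62 with DMSO at 1 h. No values overlapped, and LBP was 51.8-fold higher at 24 h, against 13.3-fold at 1 h (change 1.96 ± 0.18, limma, Benjamini-Hochberg adjusted p = 4.3e-07).

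LY96 encodes MD-2, which binds lipopolysaccharide beside the receptor TLR4, and had the highest change of all genes. Its values were 8.79, 8.25 and 8.50 with OSM and 4.78, 4.46 and 4.57 with DMSO at 24 h, and 5.74, 5.53 and 5.41 with OSM and 4.56, 4.67 and 4.64 with DMSO at 1 h. It was 15-fold higher at 24 h, against 1.91-fold at 1 h (change 2.97 ± 0.30, adjusted p = 8.3e-07). The 1 h call was lost without OSM 1 h replicate 1 (0.85) or DMSO 1 h replicate 1 (0.90). LYVE1, a hyaluronan receptor used as a marker of lymphatic and sinusoidal endothelium, was 6.48-fold higher at 24 h, against 1.78-fold at 1 h. It was the 1 gene of 13 measured markers of other cell types to change between the times (2 upward and 1 downward without the 6 h DMSO array apart). At 24 h CD68 and SOX9 of that list were also higher than vehicle (0.34 ± 0.08 and 0.21 ± 0.06), PECAM1, another endothelial marker, was lower (−0.43 ± 0.10), and VWF, also endothelial, did not pass (0.06 ± 0.10). IGFBP1, a hepatic binding protein of insulin-like growth factors, was 4.61-fold higher at 24 h, against 1.57-fold at 1 h, and its 1 h call was lost without DMSO 1 h replicate 3 (0.57). FLRT3, a cell adhesion gene, changed by 0.79 ± 0.21 (adjusted p = 0.041), a call lost without any single array other than DMSO 1 h replicate 1 and DMSO 24 h replicate 1 (0.69 to 0.85 without the others) and with centred arrays (0.77).

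The receptor genes for OSM moved apart. OSMR held 10.63, 10.72 and 10.65 with OSM and 9.51, 9.45 and 9.43 with DMSO at 24 h, and 9.82, 9.80 and 9.79 with OSM and 9.29, 9.31 and 9.31 with DMSO at 1 h. It was 2.3-fold higher at 24 h, against 1.41-fold at 1 h (change 0.71 ± 0.10, limma, Benjamini-Hochberg adjusted p = 5.2e-05). LIFR held 6.50, 6.47 and 6.47 with OSM and 7.55, 7.58 and 7.49 with DMSO at 24 h, and 7.40, 7.51 and 7.30 with OSM and 7.59, 7.44 and 7.68 with DMSO at 1 h. It was 2.08-fold lower at 24 h with no overlap of groups, while the groups overlapped at 1 h (change −0.89 ± 0.17, adjusted p = 0.0031).

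IL6R, the ligand-binding receptor of interleukin 6, rose by 0.87 ± 0.09 at 24 h and 0.37 ± 0.09 at 1 h, a change of 0.50 ± 0.12. That call was lost without OSM 1 h replicate 3 (0.45), DMSO 1 h replicate 1 (0.46), OSM 24 h replicate 1 (0.47) or DMSO 24 h replicate 2 (0.46). Its 1 h call was lost without OSM 1 h replicate 1 (0.36) or 2 (0.34) or DMSO 1 h replicate 2 (0.35) or 3 (0.35). STAT3 was sustained at 0.58 ± 0.08 at 24 h and 0.37 ± 0.08 at 1 h, and JAK1, JAK2 and TYK2 passed at neither time. IL6ST, the gp130 gene, was not analysed here. In all, 2 of 9 measured receptor and JAK-STAT genes changed upward and 1 downward (median 0.07). Another cytokine receptor gene, IL4R, picked after its values were seen, grew to 1.62 at 24 h, against 1.09 at 1 h. The interferon-induced transmembrane genes IFITM1 and IFITM2 grew as well, with 1.90 ± 0.14 and 1.66 ± 0.10 at 24 h, against 0.58 ± 0.14 and 0.44 ± 0.10 at 1 h. Their sequences are alike and may share signal, and both lost the 1 h call without OSM 1 h replicate 1 (0.51 and 0.35) or DMSO 1 h replicate 1 (0.48 and 0.39). USP18, an interferon feedback gene, was lower at 24 h alone (−0.87 ± 0.08, against −0.05 ± 0.08 at 1 h). Of 17 interferon-linked genes 2 changed upward and 3 downward (median 0.00).

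**Figure D4:**
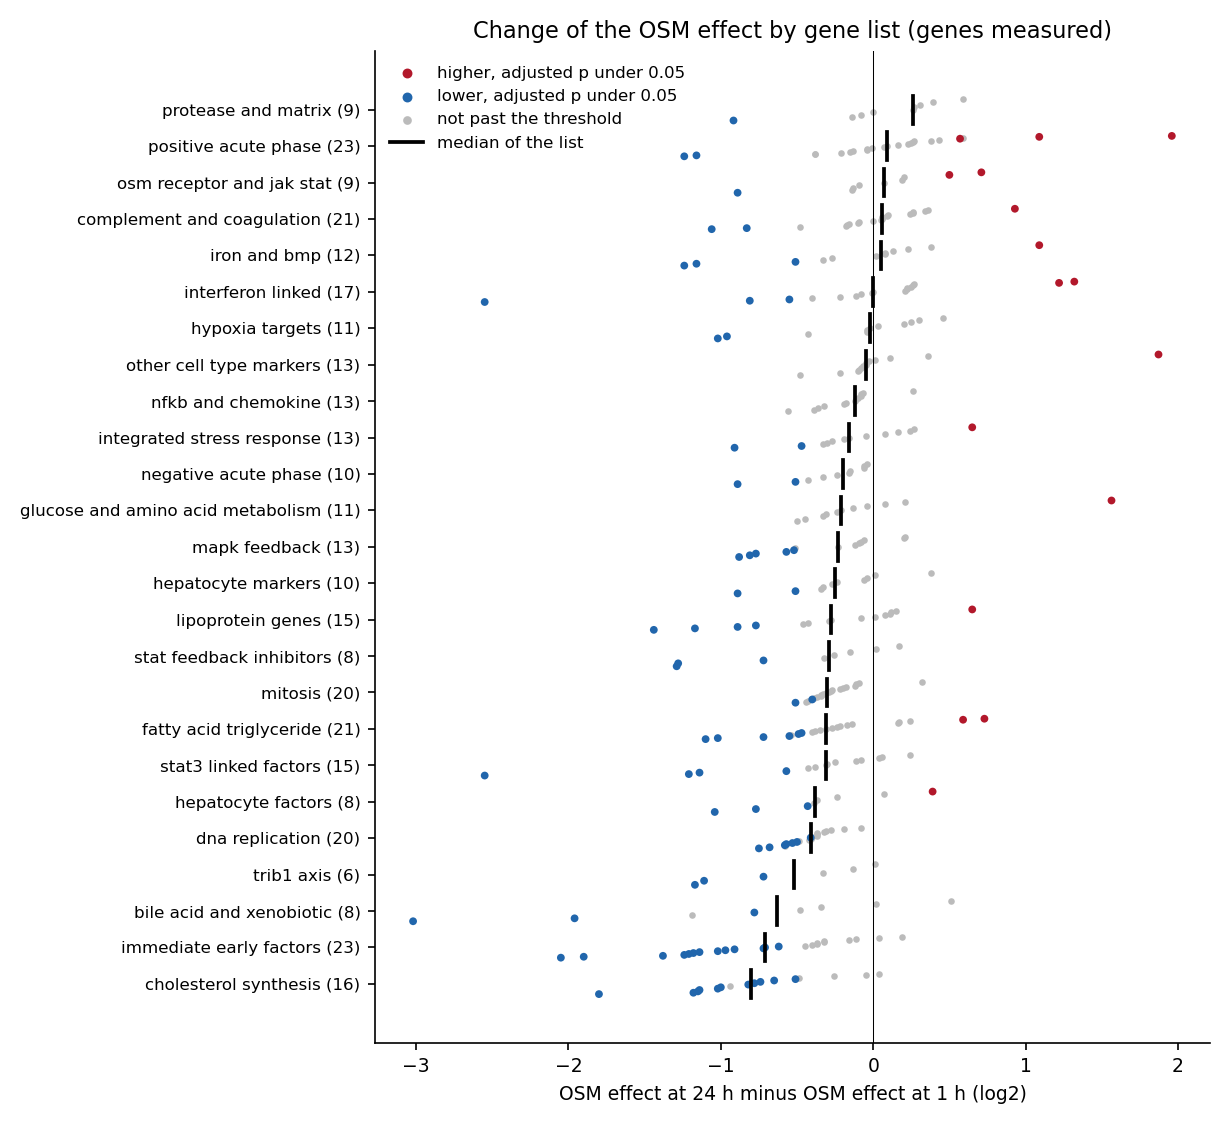
Change of the OSM effect, 24 h minus 1 h (log2), for the measured genes of 25 gene lists, each point 1 gene, coloured where it passed the threshold, with the list median as a bar. Cholesterol synthesis and immediate-early factors have the lowest medians (−0.80 and −0.71), and positive acute phase genes lie around 0.

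Late genes formed the largest class, with 147 rises (0.988% of genes tested) and 227 falls (1.53%). Of these, 29 rises and 34 falls were at least 2-fold. RGCC, a regulator of the cell cycle, was the largest late rise. It held 6.85, 6.40 and 6.45 with OSM and 4.51, 4.26 and 4.65 with DMSO at 24 h, and 4.95, 4.60 and 4.65 with OSM and 4.31, 4.39 and 4.36 with DMSO at 1 h. It was 4.27-fold higher at 24 h with no overlap (change 1.71 ± 0.20, limma, Benjamini-Hochberg adjusted p = 6.0e-06), and its 1 h effect of 0.38 ± 0.14 did not pass. SQOR, the mitochondrial enzyme that oxidises hydrogen sulfide, held 9.02, 9.06 and 9.05 with OSM and 7.31, 7.55 and 7.71 with DMSO at 24 h, and 7.43, 7.34 and 7.42 with OSM and 7.45, 7.42 and 7.51 with DMSO at 1 h. It was 2.87-fold higher at 24 h, and the 1 h groups overlapped.

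CP and C5 were late acute phase and complement genes. CP encodes ceruloplasmin, the copper-carrying ferroxidase, and held 11.26, 11.23 and 11.20 with OSM and 10.00, 10.05 and 10.00 with DMSO at 24 h, and 10.02, 10.16 and 10.11 with OSM and 9.98, 9.93 and 10.00 with DMSO at 1 h. It was 2.32-fold higher at 24 h (change 1.09 ± 0.16, adjusted p = 0.00013). C5, a complement component, was 2.43-fold higher at 24 h, with 0.35 ± 0.12 at 1 h. The 1 h effect of C5 passed in a fit of the 12 arrays alone, with array weights and without the 6 h DMSO array apart. In these fits C5 was a growing gene. FGL1, a fibrinogen-like liver protein, was 0.87 ± 0.09 at 24 h and 0.30 ± 0.09 at 1 h. Under 5 of the alternatives that 1 h effect passed. Other late rises were LINC00941 (1.74 ± 0.10 at 24 h), PAEP, which encodes glycodelin (1.59 ± 0.13), the major vault protein gene MVP (1.57 ± 0.13), the phosphatase gene UBASH3B (1.55 ± 0.07) and the membrane protein gene CD109 (1.45 ± 0.09). At 1 h MVP stood at 0.29 ± 0.13 and UBASH3B at 0.23 ± 0.07. Both 1 h effects passed in a fit of the 12 arrays alone, with array weights and without the 6 h DMSO array apart, which made these genes growing. The second CD109 probe set changed by 0.16, which did not pass. CPT1A, the gatekeeper of mitochondrial fatty acid oxidation, rose by 0.88 ± 0.10 at 24 h, against 0.16 ± 0.10 at 1 h.

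The late falls with the lowest 24 h effects were GSTA2, LEAP2, DKK4, PRLR, GSTA1 and TMT1A. GSTA2, a glutathione S-transferase, held 4.0, 3.18 and 3.53 with OSM and 6.42, 6.14 and 6.36 with DMSO at 24 h, and 6.46, 6.57 and 6.48 with OSM and 6.32, 6.31 and 6.01 with DMSO at 1 h. It was 6.66-fold lower at 24 h, where its OSM values lay at or under 4 and low array values are compressed, so the fold may be understated (change −3.02 ± 0.48, limma, Benjamini-Hochberg adjusted p = 0.00037), and at 1 h the OSM arrays lay above the DMSO arrays by 0.29 ± 0.34, not past the threshold. The near-identical GSTA1 was −1.87 ± 0.16 at 24 h, and the pair may share signal. LEAP2, a liver-expressed peptide that blocks the ghrelin receptor, was 4.01-fold lower at 24 h, and DKK4, a secreted Wnt inhibitor, 3.93-fold lower. The prolactin receptor gene PRLR was 3.72-fold lower and TMT1A, a thiol methyltransferase, stood at −1.84 ± 0.14. None of these 6 genes passed at 1 h. BAAT, which conjugates bile acids, stood at −0.88 ± 0.12 at 24 h. Of 8 measured bile acid and xenobiotic genes 3 changed downward and 0 upward (median −0.63; 5 and 1 without the 6 h DMSO array apart), and the sensor gene AHR was sustained at 1.12 ± 0.14 at 24 h and 0.61 ± 0.14 at 1 h.

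The hepatocyte marker list moved with these falls: 5 of its 10 measured genes were lower and 1 higher than vehicle at 24 h, against 0 and 1 at 1 h, and its part in them was not tested. Over all genes 5.65% were lower and 4.6% higher at 24 h, against 0.813% and 2.03% at 1 h. Cholesterol synthesis gave the lowest median of the 25 lists in the time comparison. Of 16 measured genes 11 changed downward, 0 upward and 5 did not pass, with a median of −0.80 beside −0.01 over all genes (13 downward without the 6 h DMSO array apart). At 24 h 14 were lower than vehicle (5.65% of all genes were), against 0 at 1 h (0.813%). HMGCS1, which makes the HMG-CoA that feeds the pathway, held 7.65, 7.65 and 7.72 with OSM and 9.34, 9.48 and 9.34 with DMSO at 24 h, and 9.48, 9.65 and 9.54 with OSM and 9.44, 9.48 and 9.50 with DMSO at 1 h. It was 3.27-fold lower at 24 h with no overlap, and the groups overlapped at 1 h (change −1.80 ± 0.11, limma, Benjamini-Hochberg adjusted p = 4.1e-10). Further along the pathway, MVK, IDI1, SQLE and MSMO1 stood at −1.13 ± 0.10, −1.07 ± 0.08, −0.91 ± 0.09 and −0.95 ± 0.13 at 24 h, and none passed at 1 h. SREBF2, the transcription factor of the pathway, was −0.32 ± 0.08 at 24 h, with no change past the threshold. INSIG1 averaged 3.90 over all arrays, too near background for a missed call to be read. ACAT2 and SOAT2, picked after their values were seen, were late falls too, at −1.27 and −1.61 at 24 h.

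Triglyceride genes fell late in part. Of 21 measured fatty acid and triglyceride genes 6 changed downward, 2 upward and 13 did not pass (median −0.31; 10 downward without the 6 h DMSO array apart). PNPLA3, a lipid droplet protein linked to fatty liver, stood at −1.32 ± 0.09 at 24 h and −0.22 ± 0.09 at 1 h. DGAT1 and DGAT2, which complete triglyceride synthesis, stood at −1.04 ± 0.07 and −0.62 ± 0.07 at 24 h, and MLXIPL, the carbohydrate-responsive factor of lipogenesis, at −0.75 ± 0.11. FASN, the fatty acid synthase gene, passed at neither time (−0.36 ± 0.16 at 24 h, −0.01 ± 0.16 at 1 h), and SREBF1 did not either.

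**Figure D5:**
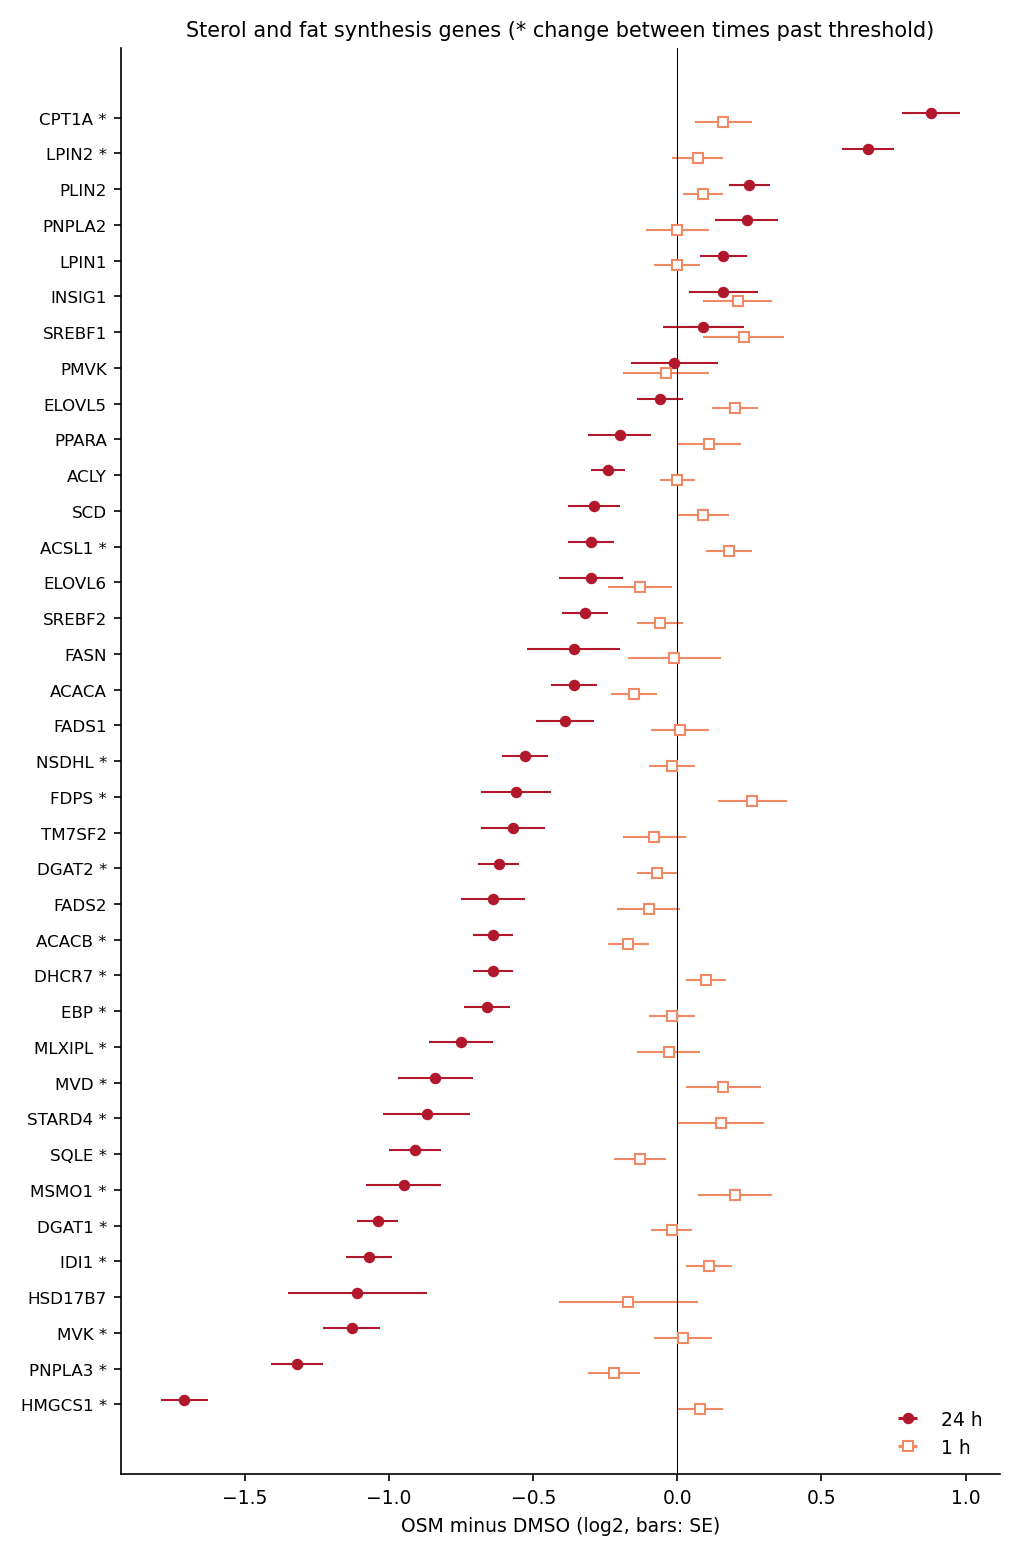
OSM minus DMSO (log2, bars SE) for the measured genes of the cholesterol synthesis and the fatty acid and triglyceride lists, with 24 h as filled circles and 1 h as open squares, ordered by the 24 h effect. The 1 h values lie near 0, and 24 h values reach −1.71 for HMGCS1 and 0.88 for CPT1A; stars mark a change past the threshold.

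Genes of lipoprotein assembly did not move as one. MTTP, which loads lipid onto apolipoprotein B, held 7.89, 7.56 and 7.63 with OSM and 9.14, 8.93 and 8.85 with DMSO at 24 h, and 8.94, 8.87 and 8.87 with OSM and 9.06, 9.03 and 8.92 with DMSO at 1 h. It was 2.42-fold lower at 24 h with no overlap, while the groups overlapped at 1 h (change −1.17 ± 0.26, limma, Benjamini-Hochberg adjusted p = 0.01). APOB itself was −0.04 ± 0.07 at both times, and its change was 0.01 ± 0.09. APOC3, which slows clearance of triglyceride-rich particles, was 2.48-fold lower at 24 h, with 0.13 ± 0.13 at 1 h, and the cholesterol-esterifying LCAT was −0.82 ± 0.10. APOA1, the main protein of HDL, changed by −0.89 ± 0.22, a call lost without OSM 1 h replicate 2 (−0.83), DMSO 1 h replicate 3 (−0.87), OSM 24 h replicate 3 (−0.81) or DMSO 24 h replicate 3 (−0.84) and with quantile normalization (−0.85). VLDLR, a lipoprotein receptor, rose by 0.65 ± 0.10 at 24 h. In all, 4 of 15 lipoprotein genes changed downward and 1 upward (median −0.28).

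Among hepatocyte transcription factors ONECUT1 and FOXA1 fell late and PROX1 rose early. ONECUT1, also known as HNF6, stood at −1.34 ± 0.14 at 24 h and −0.30 ± 0.14 at 1 h, and FOXA1 at −0.45 ± 0.07 and −0.03 ± 0.07. PROX1 was transient, with 0.07 ± 0.07 at 24 h and 0.84 ± 0.07 at 1 h. Of 8 measured factors 3 changed downward and 1, FOXA2, upward (median −0.38; 5 downward and 1 upward without the 6 h DMSO array apart). Among secreted liver proteins, KNG1 and F11 of the contact system stood at −0.99 ± 0.12 and −0.95 ± 0.12 at 24 h, and transthyretin (TTR) at −0.46 ± 0.07. A second KNG1 probe set changed by −0.00 and did not pass. Of 10 measured negative acute phase genes, whose proteins decline in inflammation, 2 changed downward and 0 upward (median −0.20; 4 downward without the 6 h DMSO array apart). The albumin gene ALB stood at −0.22 ± 0.07 at 24 h and 0.11 ± 0.07 at 1 h, past the threshold at neither time. EPO, the erythropoietin gene, was −0.74 ± 0.11 at 24 h and 0.22 ± 0.11 at 1 h, while ADM, a hypoxia-responsive peptide gene, was transient (0.17 ± 0.12 at 24 h, 1.19 ± 0.12 at 1 h). TIMP3 changed by −0.92 ± 0.13 on its brighter probe set and by 0.69 on the other one, with −0.12 for their mean, so its direction is uncertain.

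Cell division genes were lower at 24 h in small steps. Of 20 measured DNA replication genes 17 were lower than vehicle at 24 h (5.65% of all genes were) and 0 at 1 h. Between the times 7 changed downward (2.1% of all genes did) and 0 upward (median −0.41; 15 downward without the 6 h DMSO array apart). GINS2, MCM2, MCM10 and CDC6, parts of the replication machinery, stood at −0.80 ± 0.12, −0.77 ± 0.10, −0.75 ± 0.07 and −0.70 ± 0.08 at 24 h. Of 20 mitosis genes 15 were lower at 24 h and 0 at 1 h, but only MAD2L1 and KIF20A changed downward between the times (median −0.30; 9 downward without the 6 h DMSO array apart). The MAD2L1 call was lost without any array but DMSO 1 h replicate 2, OSM 24 h replicate 1 and DMSO 24 h replicate 3 (−0.53 to −0.43 without the others). The KIF20A call was lost without OSM 1 h replicate 1 (−0.36), DMSO 1 h replicate 1 (−0.41) or 3 (−0.37), OSM 24 h replicate 2 (−0.39) or 3 (−0.40) and DMSO 24 h replicate 1 (−0.40) or 3 (−0.37). Chemokine and NF-kB genes gave no change past the threshold in 13 measured (limma; median −0.12), with CXCL5 furthest at −0.56 ± 0.21. CXCL5 passed without DMSO 1 h replicate 1 (−0.76).

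The labels carry a position letter whose meaning they do not state. It was A on all OSM 24 h arrays and on 2 of 3 DMSO 24 h arrays, and B on the remaining DMSO 24 h array and on all 1 h arrays. With the letter as a term in the fit 365 genes changed between the times. Leaving out the DMSO 24 h array of letter B (replicate 3), so that each time lay within 1 letter, gave 405. Of 99 named genes that changed, 7 lost their call with the letter term: APOA1, C10orf62, FLRT3, KIF20A, MAD2L1, XBP1 and ZNF737. With the same term 388 genes passed at 1 h and 1147 at 24 h, and 78 were transient, 111 sustained, 19 growing and 262 late.

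BRD8518 at 1 uM was measured at the same times as OSM. The time difference of OSM was set directly against that of BRD8518, so that the DMSO means cancel. DMSO arrays still enter the spread shared by the fit, and so the p-values. Between the treatments the time difference differed for 2163 genes (14.5%), 1190 higher with OSM (8%) and 973 lower (6.54%). A term for the letter lowered the count to 1318, and it was 3448 without the 6 h DMSO array apart and 3759 with array weights, and the BRD8518 1 h arrays carried the letters B, C and C, against B on all OSM 1 h arrays. TRIB1 was among the lower ones, at −2.12 ± 0.12 (limma, Benjamini-Hochberg adjusted p = 2.9e-11). Its BRD8518 effect grew by 1.00 ± 0.12 between 1 h and 24 h, while the OSM effect changed by −1.11 ± 0.12. IL6R went the same way, at −1.63 ± 0.12, with 2.13 ± 0.12 for BRD8518 and 0.50 ± 0.12 for OSM. RGCC, the largest late rise with OSM, grew by 3.83 ± 0.20 with BRD8518, against 1.71 ± 0.20 with OSM. ANKRD1 was at −3.03 ± 0.13, since it grew by 1.64 ± 0.13 with BRD8518, against −1.40 ± 0.13 with OSM.

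For some late falls the difference between the treatments did not pass the threshold. HMGCS1 changed by −1.80 ± 0.11 with OSM and −1.64 ± 0.11 with BRD8518 (difference −0.15, 95% interval −0.37 to 0.07, adjusted p = 0.45), LEAP2 by −2.15 ± 0.16 and −1.85 ± 0.16 (difference −0.30, 95% interval −0.63 to 0.02, adjusted p = 0.24), and MTTP by −1.17 ± 0.26 and −1.0 ± 0.26 (difference −0.16, 95% interval −0.71 to 0.38, adjusted p = 0.8). A difference that misses the threshold does not show that the treatments act alike. CP was at 2.11 ± 0.16, with 1.09 ± 0.16 for OSM and −1.02 ± 0.16 for BRD8518, and LBP at 1.87 ± 0.18, with 1.96 ± 0.18 and 0.09 ± 0.18. Of the 82 transient rises with OSM, 67 had a lower time difference than with BRD8518, 3 a higher one and 12 did not pass, with a median of −1.02. Of the 227 late falls, 35 were lower than with BRD8518, 62 higher and 130 did not pass (median 0.13). The classes and this comparison share the OSM arrays, so these counts are descriptions. JUN (−2.02 ± 0.11), IRF1 (−2.04 ± 0.15) and KLF6 (−1.89 ± 0.13) were among the transient genes that differed, and FOS (−0.26 ± 0.23) was among those that did not pass.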

How the data were processed

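The series holds 24 whole-transcript arrays of HepG2 cells, and 12 enter the comparison. The submitters' processing notes name RMA and oligo, by which the authors obtained the deposited log2 values. For versions and the build of the probe sets, the sources used here give nothing. Quantile steps within RMA make values relative, and low values are compressed. Of 53617 probe sets 16098 had 1 gene symbol in the platform annotation, and for the 779 genes with several the brightest over all arrays was kept, which left 14884 genes. Arrays give no read depth, and their number limits the precision.

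In R 4.3.3, limma 3.58.1 was fitted to all 24 arrays with a mean for each group, empirical Bayes moderation (prior degrees of freedom 5.3) and Benjamini-Hochberg adjustment over all genes of each contrast. Named genes are the 12 largest changes each way, the 6 largest of each time class and direction, up to 4 members per direction of each of 25 gene lists (317 genes measured) and a fixed panel. Ranked genes had their 3 OSM arrays on 1 side of the 3 DMSO arrays. Further list members were named after their values were seen. Members and lists were chosen with earlier results of these data known. On simulated data for the change between times, the fit recovered 81% of 100 genes changed by 1 on the log2 scale and 100% of 100 changed by 2, and 3.2% of its calls were false. The simulated noise was normal, independent between arrays and, for each gene, equal in spread over all groups. It held no array apart and no position letter, so 3.2% need not hold for the real arrays. Alternatives were other normalizations, filters, weights, probe set rules, fits of fewer arrays and the position letter.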

Additional observations from a re-analysis of the deposited data

Results flagged for a closer look

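The OSM effect differed between 24 h and 1 h, tested as an interaction, for 502 genes. In 12 of them the effect also passed the threshold at each time with opposite signs. Their changes were −3.24 for MIXL1, −1.42 for RHOB, −1.40 for ANKRD1, −1.04 for FBXO5, −0.97 for JUND, −0.88 for SPRY2, −0.81 for DUSP8 and −0.78 for TIPARP, and upward 0.71 for MRPS31P5, 1.08 for MIR146A, 1.21 for ARRDC4 and 2.12 for TXNIP. In 7 of the 12 both calls and the change held under every alternative; the others were DUSP8, FBXO5, JUND, MRPS31P5 and RHOB. Probe sets without a gene name were outside the main comparison, and 233 of 37519 (0.621%) passed the same test when fitted apart, 111 higher and 122 lower.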

How the results depend on the processing

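Of 99 named genes that changed, 89 passed under every alternative that gave them a value, and 0 reversed. That was 23 alternatives for 85 of the 99 and 22 for the other 14, whose level lies under the median. A class was kept throughout by 77 of 111 named genes. In a fit of the 12 arrays alone 828 genes changed (304 higher, 524 lower), 707 passed at 1 h, and 147 were transient, 233 sustained, 38 growing and 615 late. Array weights gave 1324 (540 and 784), 1125 at 1 h, 3068 at 24 h, 252, 386, 81 and 942 in the same classes, and 3759 against BRD8518. Without the 6 h DMSO array apart, an alternative chosen after seeing the data, there were 1100 (418 and 682), 806 at 1 h, 2535 at 24 h, 193, 263, 56 and 806, and 3448 against BRD8518. The position letter gave 1318 against BRD8518. At an adjusted p under 0.01, 84 genes were sustained, 12 growing and 207 late. Leaving out 1 array of the 4 groups at a time gave 384 to 446 changed genes (139 to 160 higher, 245 to 293 lower), 274 to 411 at 1 h, 1107 to 1505 at 24 h, 1744 to 2144 against BRD8518 (with each BRD8518 array of 24 h and 1 h left out too, added after seeing the data), 81 to 97 transient, 95 to 115 sustained, 14 to 21 growing and 274 to 323 late genes. The cause was not tested. Of the 502 genes, 4 had a mean under 4, against 2388 of all. Whether signal near background limited what could pass was not tested. No paired analysis was possible because the labels give no replicate numbers that the groups share.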

Other observations

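A few late genes lie outside the lists above and were picked after their values were seen. The dopa decarboxylase gene DDC, the kinase gene MAP2K6 and the scaffold gene PDZK1 had OSM effects of −1.55, −1.49 and −1.65 at 24 h, against −0.11, −0.14 and −0.47 at 1 h, and the triglyceride enzyme gene MOGAT2 had −1.39, against −0.23. Late rises included the hexokinase gene HK1 (1.27 at 24 h, 0.17 at 1 h), the kinase gene PRKD1 (1.32, against 0.09), the surface protein gene CD24 (1.16, against −0.04), the nuclear receptor gene PPARD (1.05, against 0.08) and the pyruvate carboxylase gene PC (1.08, against 0.24). NRP1, a co-receptor of VEGF and semaphorins, grew to 1.86 at 24 h, against 0.65 at 1 h.

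The counts of the lists not described above are given beside 1.27% upward and 2.1% downward over all genes. They too are descriptions, since the lists were chosen with earlier results of these data known. Of 15 STAT3-linked factors 0 changed upward and 4 downward (median −0.31), of 12 iron and BMP genes 1 and 3 (median 0.05), of 13 integrated stress response genes 1 and 2 (median −0.16) and of 11 hypoxia targets 0 and 2 (median −0.02). Of 21 complement and coagulation genes 1 changed upward and 2 downward (median 0.06), of 11 glucose and amino acid genes 1 and 0 (median −0.21), of 9 protease and matrix genes 0 and 1 (median 0.26), of 6 genes tied to TRIB1 0 and 3 (median −0.52) and of 10 hepatocyte markers 0 and 2 (median −0.25). Without the 6 h DMSO array apart, the upward and downward counts were 0 and 7 for STAT3-linked factors, 1 and 4 for iron and BMP genes, 1 and 3 for hypoxia targets, 4 and 3 for complement and coagulation genes, 1 and 3 for glucose and amino acid genes, 1 and 1 for protease and matrix genes and 1 and 5 for hepatocyte markers. For the stress response genes and those tied to TRIB1 the counts did not differ. Several genes stand in more than 1 list.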
